A study of Homo sapiens with 6 samples.

Results

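The genes that write, erase and read N6-methyladenosine (m6A) were compared between control cells and cells with a knockdown of PUS1, the pseudouridine synthase that converts uridines in tRNA and other RNAs. The 10 genes were taken by symbol from the 60605 genes of the deposited table. They were 4 writer genes (METTL3, METTL14, WTAP and VIRMA), 2 eraser genes (FTO and ALKBH5) and 4 reader genes (YTHDF1, YTHDF2, YTHDF3 and YTHDC1). None of the 10 passed the threshold of an adjusted p under 0.05 after PUS1 knockdown, against 2.58% of all genes tested, and the member with the smallest p was YTHDF1, at 1.27-fold the control level. In 4 members (FTO, ALKBH5, YTHDF1 and YTHDF3) every shPUS1 library was above every shControl library in scaled counts, as in 18.8% of all genes tested. For FTO the separation was small and was not seen in the deposited values per length (FPKM). In METTL14 every shPUS1 library was below, as in 17.3% of all genes tested, and in the remaining 5 members the groups overlapped.

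All libraries came from MDA-MB-231, a human triple-negative breast cancer cell line. The shControl group (3 libraries) carried a negative control hairpin and the shPUS1 group (3 libraries) a hairpin against PUS1. The study's methods describe puromycin-resistant lentiviral vectors for the hairpins against PUS1, and selection with puromycin. The labels call the libraries biological replicates, but whether they came from separate selections is not given, so p-values measure the spread between these libraries, which may be technical. Poly(A) RNA was sequenced, and neither m6A itself nor the protein of any member was measured. For PUS1, the paper reports a western blot in MDA-MB-231 cells, with markedly less protein in shPUS1 than in control cells. Whether the blotted cells were the sequenced cultures is not given.

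In m6A biology, METTL3 is the catalytic methyltransferase, METTL14 is its partner that positions the RNA, WTAP is the adaptor that brings the pair to nuclear speckles, and VIRMA is a large scaffold of the complex. FTO and ALKBH5 are iron- and 2-oxoglutarate-dependent dioxygenases that take the methyl group off. Readers with a YTH domain bind the methylated adenosine. YTHDF1, YTHDF2 and YTHDF3 are close paralogs in the cytoplasm, of which YTHDF2 is best known for recruiting the CCR4-NOT deadenylase to destabilise mRNA, while YTHDC1 is nuclear and acts in splicing and export.

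The study lists 3 hairpins against PUS1, and the labels do not say which one the sequenced cells carried. The names of the knockdown columns in the deposited table hold a 2 whose meaning is not given, and it was not read as the hairpin. Their targets are shown because a short match between a hairpin guide and another transcript can matter when the levels of other genes are read. Each target is printed 5′ to 3′ as in the PUS1 mRNA, and capitals mark the bases that pair with the seed of the guide, positions 2 to 8.
shPUS#1: tgtcgggtcctcaCAATTCAa
shPUS#2: gcacttcgagaagTACAACCa
shPUS#3: gcacgcacaacttCCACAATt
On GRCh38 these lie on the plus strand at chr12:131932180-131932200, chr12:131941761-131941781 and chr12:131941469-131941489. All are coding, and PUS1-202 holds them in exons 3, 5 and 5 of 6. No member holds a full target, and PUS1 was the only gene that did. A 7-letter match to the shPUS#1 seed (CAATTCA, same strand as the mRNA) was present somewhere in the annotated transcripts of 4 members, METTL3, WTAP, FTO and YTHDF3, and in those of 21.6% of 19922 protein-coding genes. For shPUS#2 (TACAACC) it was present in WTAP and YTHDF1 and in 17.3% of those genes, and for shPUS#3 (CCACAAT) in FTO and in 3986 of those genes. These matches are a description of the letters only.

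The YTHDF paralogs are close enough in sequence to ask whether reads could be shared between them. The longest stretch that YTHDF1 and YTHDF2 transcripts have in common was 20 bases, shown because it is the longest identity within this family of readers.
YTHDF1 and YTHDF2: aagagctactctgaggacga
It lies at chr20:63202738-63202757 on the minus strand, in exon 4 of 5 of YTHDF1-202, and at chr1:28743516-28743535 on the plus strand, in exon 5 of 6 of a YTHDF2 transcript. Both positions are coding. For YTHDF3 the longest identical stretch was 17 bases with YTHDF1 and 17 with YTHDF2, so no 100-base stretch of these paralogs was shared among them.

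Library totals ran from 14241505 to 19625998 estimated counts. PUS1 was at 14.5, 27.5 and 12.1 CPM, the counts scaled to library size, in shControl replicates 1 to 3 and at 6.57, 5.47 and 5.37 CPM in shPUS1, a log2 fold change of -1.64 (SE 0.32, edgeR adjusted p = 0.0462). Every shPUS1 library was below every control. The PUS1 value was -1.20 (edgeR adjusted p = 0.00311) without shControl replicate 2, and leaving out shControl replicate 1 or any 1 shPUS1 library gave adjusted p-values of 0.0905 to 0.253. It was 0.0514 and 0.0544 with limma on FPKM. shControl replicate 2 stood apart, with correlations of log2 CPM of 0.9505 and 0.9521 with the other controls, which correlated at 0.981 with each other, while shPUS1 pairs lay between 0.9872 and 0.9906. Results are for this reason also given without that library. VIM (286 to 498 FPKM, the library-scaled count per length of exon) and CD44 (74.6 to 99.6 FPKM) were high. The hormone receptors ESR1 and PGR were at or near 0 FPKM (at most 0.04), as this line is known for. The leukocyte marker PTPRC was at most 0.02 FPKM. Of the other markers chosen, KRT8 was at 36.6 to 57.3 FPKM and KRT18 at 63.8 to 74.0 FPKM. ERBB2, chosen as a low marker, was not near 0, at 4.93 to 6.91 FPKM, and the endothelial marker PECAM1 was at 0.18 to 0.46 FPKM.

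All 10 members passed the filter on low counts, as did 14748 genes in all, and the members had between 331 and 4038 estimated counts in a library. A gene was called at an adjusted p under 0.05 in the edgeR quasi-likelihood test, with p adjusted over all 14748 genes. That rule called 380 genes, or 2.58%, of which 256 were higher and 124 lower in shPUS1, and it called 202, or 1.37%, when the log2 fold change had also to reach 1 in size. Of the members, 0 were called by either rule. An unadjusted p under 0.05 was found for 1 member, YTHDF1, against 25.5% of all genes. DESeq2 also called 0 members, with 1 at an unadjusted p under 0.05, against 3928 of 27004 genes in that fit. Limma on FPKM called 0 members, with 0 at an unadjusted p under 0.05. Over all 11519 genes of the limma fits, 3172 had such a p on log2(FPKM + 1) and 3147 on log2(FPKM + 0.1). The median absolute log2 fold change of the members was 0.19, against 0.31 over all genes tested, and their median log2 fold change was 0.02, against -0.03. The SE of the members ran from 0.109 to 0.205, against a median of 0.21 over all genes tested. The absolute values were therefore not compared at a like spread.

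Levels can be compared between genes only per length, so they are given first in FPKM, as deposited. ALKBH5 had the highest level in shControl, with a mean of 48.8 ± 9.60 FPKM (SD, n = 3), followed by YTHDF1 at 43.1 ± 6.45, and the ranges of these genes overlapped. YTHDF2 at 18.6 ± 3.62 and YTHDC1 at 16.8 ± 3.92 formed a second overlapping pair. VIRMA at 11.3 ± 0.701, YTHDF3 at 11.2 ± 0.869, WTAP at 10.1 ± 2.54 and METTL3 at 8.16 ± 0.708 overlapped each with its neighbour in the order. METTL14 at 3.53 ± 0.123 and FTO at 1.89 ± 0.216 did not overlap with each other or with any gene above them. The eraser genes thus held both ends of the order in FPKM, which depends on the exonic length used. That length was 21379 bases for FTO, 6838 for METTL14 and 3601 for ALKBH5. In CPM, which does not use length, FTO (mean 40.2 in shControl) was above METTL14 (24.0). In shPUS1 the order was the same at both ends, with ALKBH5 at 58.6 ± 3.31 FPKM and FTO at 2.19 ± 0.110 FPKM. YTHDC1 and YTHDF2 were in the opposite order but overlapped, whereas YTHDF3 (13.3 ± 0.442 FPKM) was above VIRMA (11.1 ± 0.549 FPKM) without overlap.

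**Figure D1:**
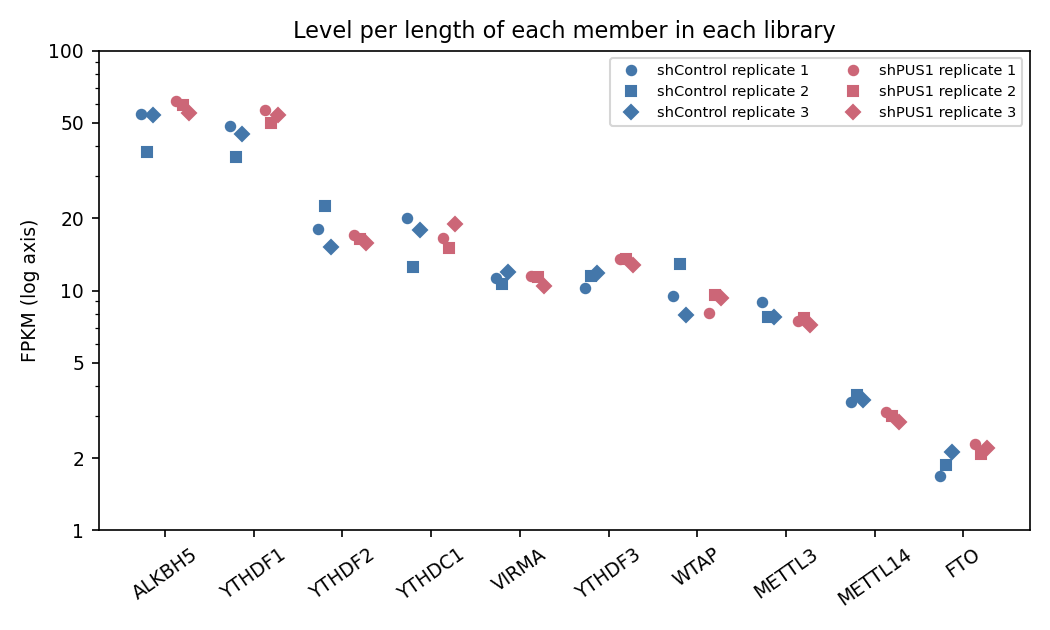
FPKM of each member in each of the 6 libraries on a log axis, ordered by the shControl mean, with shControl in blue, shPUS1 in red and a marker shape for each replicate. ALKBH5 and YTHDF1 lie at 35.9 FPKM or more in every library and FTO at 2.30 FPKM or less.

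The writer genes showed no called difference. METTL3 (ENSG00000165819, chr14:21498133-21511342, minus strand), the methyltransferase, was at 51.6, 46.9 and 43.9 CPM in shControl replicates 1 to 3 and at 44.4, 45.4 and 42.6 CPM in shPUS1. The groups overlapped, and the log2 fold change was -0.11 (SE 0.12, 95% interval -0.39 to 0.18, edgeR adjusted p = 0.609). METTL14 (ENSG00000145388, chr4:118685392-118715433, plus strand), its partner, was at 23.0, 25.8 and 23.2 CPM in shControl and at 21.6, 20.6 and 19.5 CPM in shPUS1. It was the only writer whose groups did not overlap, with the shPUS1 libraries below, and its log2 fold change was -0.22 (SE 0.14, 95% interval -0.54 to 0.09, edgeR adjusted p = 0.333).

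WTAP (ENSG00000146457, chr6:159725585-159756319, plus strand), the adaptor, was at 59.9, 84.9 and 49.1 CPM in shControl and at 52.5, 61.7 and 60.6 CPM in shPUS1. shControl replicate 2 was the highest of the 6 libraries, 0.64 on the log2 scale above the mean of the other controls. The log2 fold change was -0.15 (SE 0.21, 95% interval -0.62 to 0.32, edgeR adjusted p = 0.669), and without that library it was 0.09. WTAP exons overlap the opposite-strand gene SOD2 over 298 bases, 4.6% of the exonic length of WTAP, and it is not given whether counting used strand. SOD2, the mitochondrial superoxide dismutase, was lowest in shControl replicate 2, at 145 CPM against 467 to 548 in the other libraries, where WTAP was highest. VIRMA (ENSG00000164944, chr8:94487689-94553529, minus strand), the scaffold, was the least different member, at 119, 117.5 and 125 CPM in shControl and 125, 123 and 114 CPM in shPUS1. Its log2 fold change was 0.00 (SE 0.11, 95% interval -0.25 to 0.26, edgeR adjusted p = 0.990).

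Both eraser genes were higher in CPM in every shPUS1 library than in any control, and neither was called. FTO (ENSG00000140718, chr16:53701692-54158512, plus strand), at 35.5, 41.2 and 44.0 CPM in shControl, was at 49.9, 44.6 and 47.6 CPM in shPUS1. The lowest shPUS1 library was 44.6 CPM and the highest control 44.0, so the groups were separated by little. In FPKM the FTO groups overlapped, with shControl replicate 3 at 2.12 and shPUS1 replicate 2 at 2.08. The log2 fold change of FTO was 0.23 (SE 0.13, 95% interval -0.08 to 0.55, edgeR adjusted p = 0.304). ALKBH5 (ENSG00000091542, chr17:18183078-18209954, plus strand) was at 193, 139.6 and 188 CPM in shControl and at 225, 214 and 199.98 CPM in shPUS1. shControl replicate 2 was the low library, 0.45 on the log2 scale below the mean of the other controls, and the log2 fold change was 0.29 (SE 0.15, 95% interval -0.05 to 0.64, edgeR adjusted p = 0.261). Without that library the log2 fold change of ALKBH5 was 0.15 (edgeR adjusted p = 0.276) and that of FTO 0.25 (edgeR adjusted p = 0.177).

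Among the readers, YTHDF1 (ENSG00000149658, chr20:63195429-63216139, minus strand) was at 152, 118.5 and 140.1 CPM in shControl and at 185, 161 and 174 CPM in shPUS1. All shPUS1 libraries were above all controls, and the log2 fold change was 0.34 (SE 0.13, 95% interval 0.03 to 0.65, edgeR adjusted p = 0.168). YTHDF3 (ENSG00000185728, chr8:63168553-63212786, plus strand), the paralog that is known to act with YTHDF1 and YTHDF2, was at 61.7, 72.9 and 70.9 CPM in shControl and at 84.8, 84.1 and 79.7 CPM in shPUS1. The groups were again apart, with a log2 fold change of 0.27 (SE 0.12, edgeR adjusted p = 0.197). Without shControl replicate 2 the value was 0.32 (edgeR adjusted p = 0.0582), the smallest adjusted p of any member over all 15 alternatives.

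YTHDF2 (ENSG00000198492, chr1:28736621-28769775, plus strand), the decay-linked paralog, was at 66.0, 86.0 and 55.1 CPM in shControl and at 64.7, 61.6 and 59.4 CPM in shPUS1. The groups overlapped, shControl replicate 2 being highest, and the log2 fold change was -0.16 (SE 0.17, 95% interval -0.56 to 0.24, edgeR adjusted p = 0.586), or 0.02 without that library. YTHDC1 (ENSG00000083896, chr4:68310387-68350090, minus strand), the nuclear reader, was at 139, 90.3 and 122 CPM in shControl and at 118, 106 and 135 CPM in shPUS1. Here shControl replicate 2 was the lowest library, and the log2 fold change was 0.03 (SE 0.18, 95% interval -0.38 to 0.45, edgeR adjusted p = 0.923), or -0.13 without it. With 3 libraries against 3 the smallest p that an exact two-sided permutation test can give is 0.1. The 5 members without overlap in CPM were at this value. CPM and FPKM are relative to the library, so a change in RNA per cell cannot be told apart from one in the rest of the RNA.

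**Figure D2:**
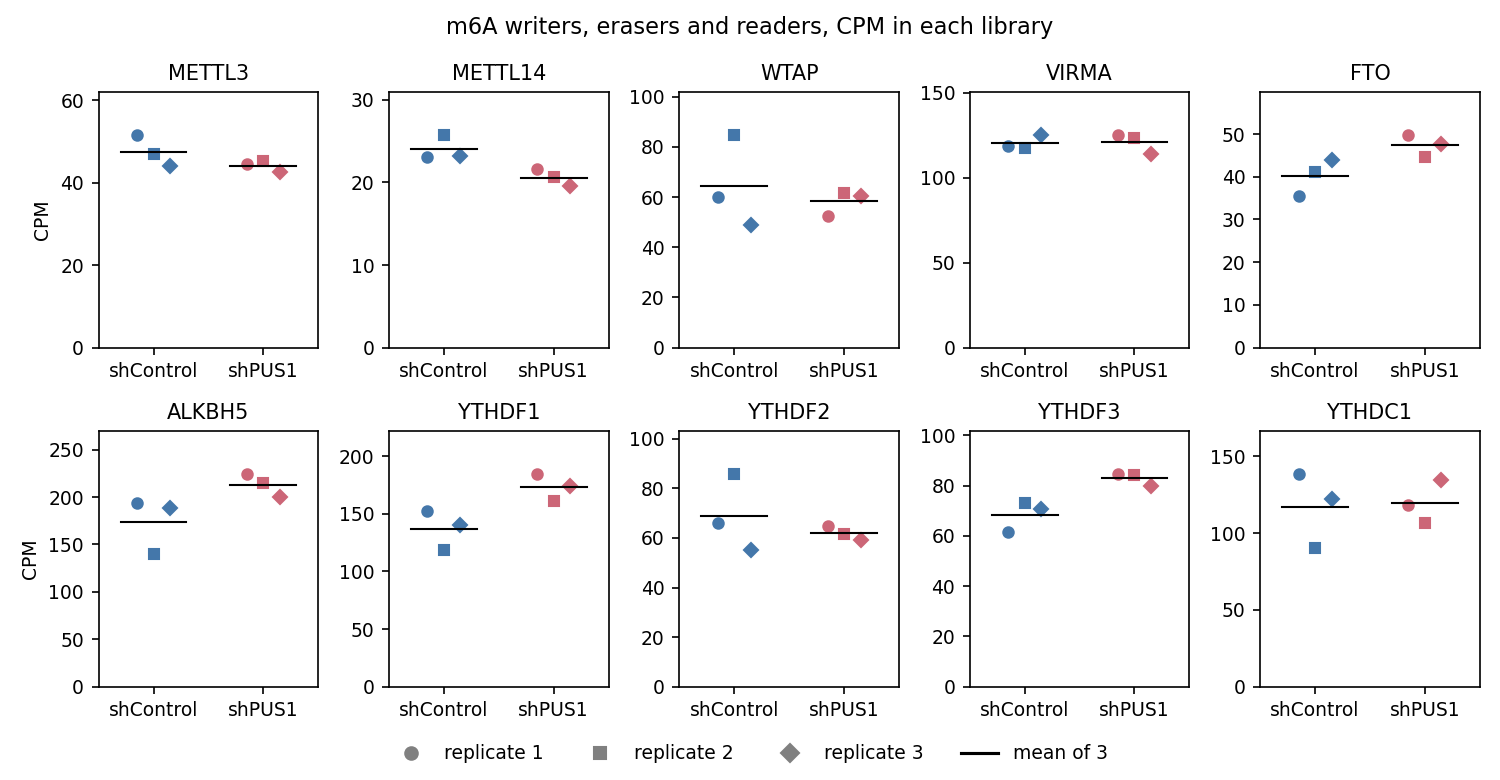
CPM of the 10 members in the 3 shControl (blue) and 3 shPUS1 (red) libraries, each panel starting at 0, with a line at the mean of 3 and a marker shape for each replicate. FTO, ALKBH5, YTHDF1 and YTHDF3 have all red points above all blue points, and METTL14 all below.

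**Figure D3:**
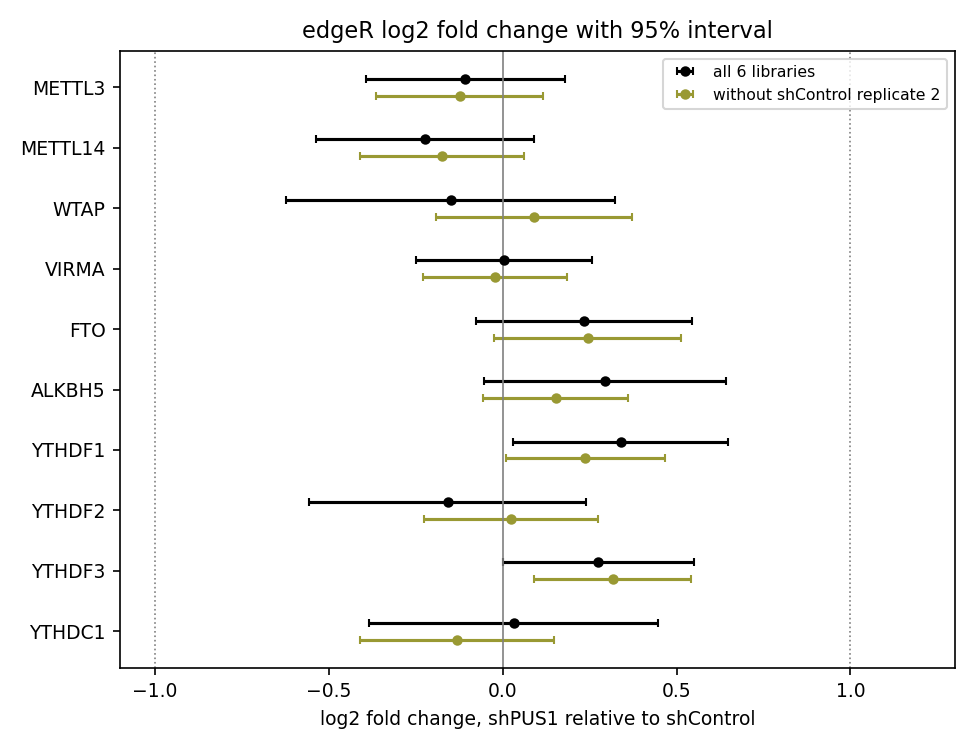
Log2 fold change of shPUS1 relative to shControl for each member, from edgeR, with its 95% interval, over all 6 libraries (black) and without shControl replicate 2 (olive). With all libraries the interval of YTHDF1 lies above 0, at 0.03 to 0.65, that of YTHDF3 starts at 0, and no interval reaches 1 or -1, the dotted lines.

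Balances between members were computed within each library from FPKM, and are given as descriptions, with no test. The share of YTHDF1 in the summed FPKM of the 3 YTHDF paralogs was 63.2%, 51.4% and 62.5% in shControl and 65.0%, 62.5% and 65.3% in shPUS1, and the groups overlapped. That of YTHDF2 was 23.5%, 32.1% and 21.1% in shControl and 19.5%, 20.6% and 19.2% in shPUS1. Every shPUS1 library had a lower YTHDF2 share than every control, the closest values being 21.1% and 20.6%, and shControl replicate 2 held the high end. YTHDF3 made up 13.3% to 17.0% in every library. The ratio of ALKBH5 to METTL3, an eraser over the catalytic writer, was 6.09, 4.84 and 6.97 in shControl and 8.23, 7.69 and 7.65 in shPUS1, without overlap. Neither gene was called, and shControl replicate 2 held the low end. Among single genes, 18.8% of those tested had every shPUS1 library above every control, and no such share was computed for ratios. METTL3 relative to its partner METTL14 ran from 2.12 to 2.62 in shControl and from 2.40 to 2.56 in shPUS1. ALKBH5 relative to FTO ran from 20.1 to 32.4 in shControl and from 25.0 to 28.5 in shPUS1. The size of the ALKBH5 to FTO ratio depends on the exonic lengths used, 3601 and 21379 bases.

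**Figure D4:**
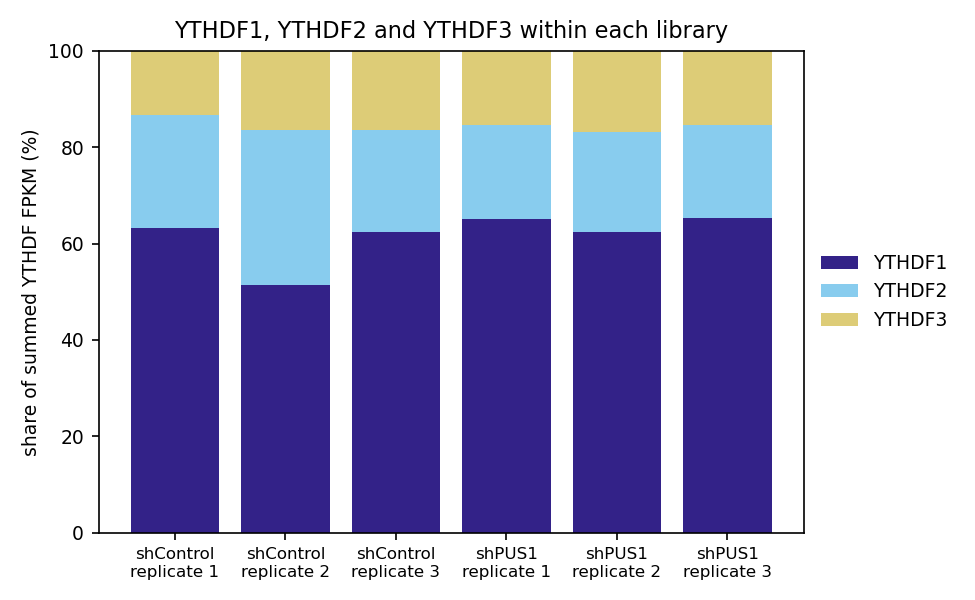
Share of YTHDF1, YTHDF2 and YTHDF3 in their summed FPKM, in percent, in each library, stacked to 100. YTHDF1 is the largest part in every library, at 51.4% in shControl replicate 2 and 62.5% to 65.3% in the other 5.

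Without shControl replicate 2, edgeR called 2813 of 15130 genes, or 18.6%, and again 0 of the 10 members. An unadjusted p under 0.05 was found for 2 members (YTHDF1 and YTHDF3), against 5219 of the 15130 genes in that fit. The median log2 fold change of the members was then 0.06, against -0.02 over all genes. The part of that library in the member values differed by gene. WTAP, at 0.64, and YTHDF2, at 0.51 on the log2 scale above the mean of the other controls, were high in it, and YTHDC1, at -0.53, ALKBH5, at -0.45, and YTHDF1, at -0.30, were low in it. Its part in the differences between groups was not tested beyond leaving it out.

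Some member reads could also come from other genes. Of the 100-base stretches of WTAP transcripts 2.40% were shared with AL158050.1, of YTHDF2 2.22% with its pseudogene YTHDF2P1 and of FTO 0.453% with 10 genes, while the other members shared none. Opposite-strand exons overlap METTL3 (TOX4, 388 bases, 6.6% of METTL3) and ALKBH5 (AC087164.1, 357 bases, 11.2% of ALKBH5). They also overlap FTO (AC007347.2, 180 bases, 0.8% of FTO). A second annotated SOD2 gene overlaps WTAP over 139 bases, 2.2% of WTAP. The level of AC087164.1 is not given here. TOX4, a neighbour with a DNA-binding HMG box, was at 76.1 to 87.1 CPM in all libraries.

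Genes around the m6A pathway were taken from 7 further lists, and edgeR called 0 of their 49 tested genes with all 6 libraries, against 2.58% of all genes. At an unadjusted p under 0.05, 5 were higher and 8 lower, together near the 25.5% of all genes. Without shControl replicate 2 edgeR called 18.6% of all genes. It then called 0 among the further writer subunits, the other methyltransferases and the further m6A-binding proteins. The further subunits of the writer complex, RBM15, RBM15B, ZC3H13 and CBLL1, had a median log2 fold change of 0.05, or 0.19 without shControl replicate 2. RBM15, an RNA-binding subunit that guides the complex to its sites, was at 24.5, 23.9 and 39.4 CPM in shControl and at 45.1, 49.9 and 39.4 CPM in shPUS1. Replicate 3 was at 39.4 CPM in both groups, so the groups overlapped, and the log2 fold change was 0.61 (SE 0.22, edgeR adjusted p = 0.136). Without shControl replicate 2 the RBM15 value was 0.48 (edgeR adjusted p = 0.111). RBM15 was called under 1 of the 15 alternatives. That was without shControl replicate 3, its highest control, where it rose by 0.88 (edgeR adjusted p = 0.0476). Of the 6 other enzymes or partners that make m6A or m6Am, none had an unadjusted p under 0.05. PCIF1, the enzyme of m6Am beside the cap, had a log2 fold change of 0.20 (edgeR adjusted p = 0.345). Of 9 further m6A-binding proteins 8 were tested, IGF2BP1 having at most 4 counts in a library, and none had an unadjusted p under 0.05. RBMX, a nuclear hnRNP, had the smallest p of them, with a log2 fold change of -0.50 (edgeR adjusted p = 0.205), or -0.21 without shControl replicate 2, in which it was 0.74 above the mean of the other controls.

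Of 6 genes of S-adenosylmethionine supply, 1 was higher and 2 were lower at an unadjusted p under 0.05, against 25.5% of all genes in either direction. Without shControl replicate 2, 1 was called higher and 2 lower, against 18.6% of all genes called in that fit. MAT2A, which makes the methyl donor, was at 175.5, 290.6 and 169 CPM in shControl and at 123, 112 and 119.5 CPM in shPUS1. All shPUS1 libraries were below all controls, and the log2 fold change was -0.84 (SE 0.21, edgeR adjusted p = 0.0719). DESeq2 gave an adjusted p of 0.00762. MAT2A was called under 3 of the 15 alternatives. Leaving out any 1 shPUS1 library gave it edgeR adjusted p-values of 0.226 to 0.297. Without shControl replicate 2, which was its highest library, MAT2A fell by 0.55 on the log2 scale (edgeR adjusted p = 0.00606). AHCY and AHCYL1 were chosen for mention after their values were seen. AHCY, which hydrolyses S-adenosylhomocysteine, had a log2 fold change of -0.54 (edgeR adjusted p = 0.0846) and without that library fell by 0.39 (edgeR adjusted p = 0.0213). AHCYL1, a related protein that binds the IP3 receptor, went from 0.53 (edgeR adjusted p = 0.178) to a rise of 0.30 without it (edgeR adjusted p = 0.0449).

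Among 7 other AlkB-family dioxygenases the median log2 fold change was -0.40, or -0.17 without shControl replicate 2. With all libraries 2 had an unadjusted p under 0.05, both lower, against 25.5% of all genes in either direction. Without shControl replicate 2, 1 of the 7 was called, against 18.6% of all genes. ALKBH2, a DNA repair demethylase, had the smallest p, with a log2 fold change of -0.54 (edgeR adjusted p = 0.130). ALKBH7, a mitochondrial member named after its values were seen, fell by 0.48 without shControl replicate 2 (edgeR adjusted p = 0.0357), and was at -0.41 with it (edgeR adjusted p = 0.165). In the list of the CCR4-NOT deadenylase with RIDA and UPF1, through which YTHDF2 acts, 3 of 13 genes were higher and 1 lower at an unadjusted p under 0.05, against 25.5% of all genes in either direction. Without shControl replicate 2, 3 of the 13 were called, all higher, against 18.6% of all genes. CNOT3, a deadenylase subunit, was at 64.9, 64.3 and 68.8 CPM in shControl and at 95.7, 84.8 and 98.4 CPM in shPUS1. The groups were well apart, and the log2 fold change was 0.49 (SE 0.12, edgeR adjusted p = 0.0619), or 0.47 without shControl replicate 2 (edgeR adjusted p = 0.0184). DESeq2 gave CNOT3 an adjusted p of 0.0121. UPF1, the helicase of nonsense-mediated decay, and CNOT4 were named after their values were seen. UPF1 had a log2 fold change of 0.49 (edgeR adjusted p = 0.0653, DESeq2 adjusted p = 0.0107) and rose by 0.47 without shControl replicate 2 (edgeR adjusted p = 0.0187). CNOT4, a ubiquitin ligase, had one of 0.56 (edgeR adjusted p = 0.110) and rose by 0.61 without that library (edgeR adjusted p = 0.0353). CNOT3 and UPF1 were each called under 2 of the 15 alternatives. Leaving out any 1 shPUS1 library gave edgeR adjusted p-values of 0.237 to 0.287 for CNOT3 and 0.198 to 0.299 for UPF1.

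All 5 genes of the exon junction complex core, which keeps m6A out of regions near splice junctions, had log2 fold changes below 0, as did 52.7% of all genes tested, with a median of -0.51. An unadjusted p under 0.05 was found for 3 of them, against 25.5% of all genes. With shControl replicate 2 left out, edgeR called 1 of the 5, against 18.6% of all genes. Without shControl replicate 2 the median was -0.25 and 4 of 5 were below 0, CASC3, named after its value was seen, being at 0.05. MAGOHB, a core subunit, was at 13.8, 23.7 and 10.9 CPM in shControl and at 6.51, 4.71 and 7.91 CPM in shPUS1. Its groups did not overlap, the log2 fold change was -1.34 (SE 0.33, edgeR adjusted p = 0.0676), and without shControl replicate 2 it fell by 0.96 (edgeR adjusted p = 0.0209). DESeq2 gave an adjusted p of 0.00303. MAGOHB was called under 3 of the 15 alternatives. Leaving out any 1 shPUS1 library gave it edgeR adjusted p-values of 0.195 to 0.292.

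**Figure D5:**
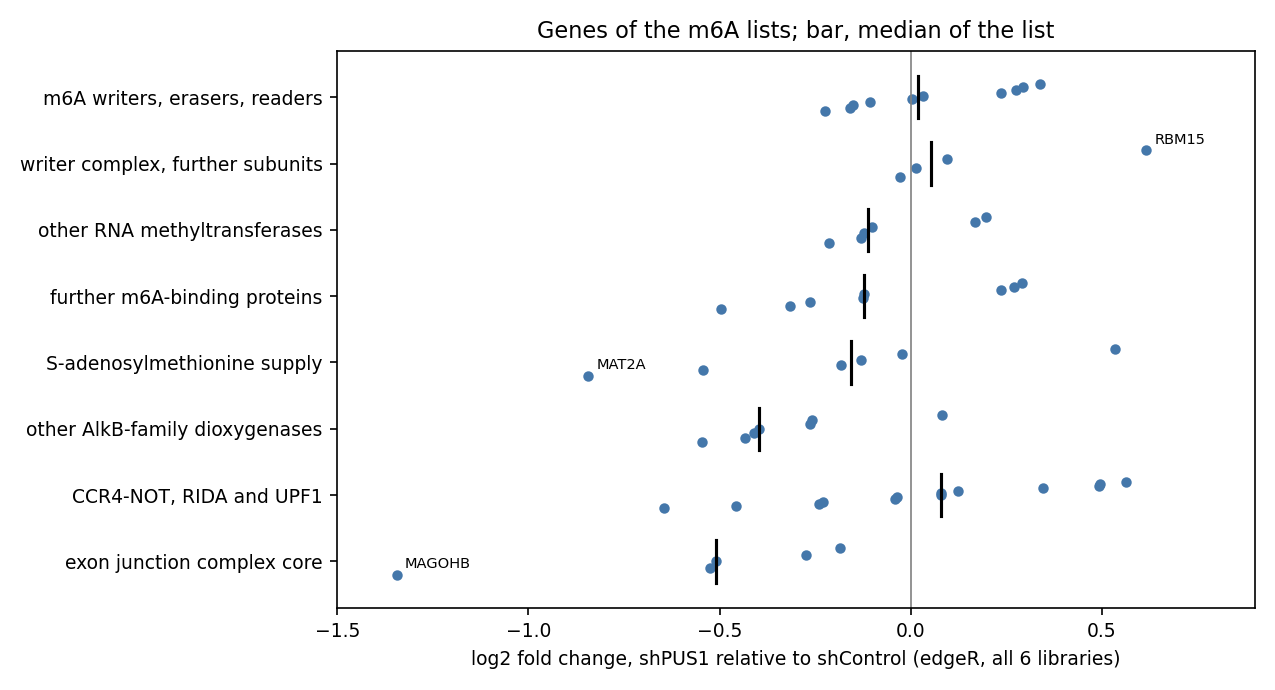
Log2 fold change of shPUS1 relative to shControl for each tested gene of the 8 lists (points), from edgeR with all 6 libraries, with the list median as a bar. The members stay between -0.22 and 0.34, while MAGOHB lies at -1.34 and MAT2A at -0.84.

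For each member the gene with the most similar values over the 6 libraries was sought among 58 genes, the other members and the lists, by the root mean square distance of log2 CPM centred on each gene's mean. FTO and YTHDF3 were each other's closest gene, at 0.07, and ALKBH5 and YTHDF1 were each other's closest at 0.09. VIRMA was closest to CBLL1 at 0.09, METTL3 to MAT2B at 0.09, METTL14 to ZCCHC4 at 0.09, YTHDF2 to EIF4A3 at 0.10, WTAP to TRMT112 at 0.11 and YTHDC1 to CNOT11 at 0.16. Second genes were about as close for METTL3 (ZCCHC4, 0.094), METTL14 (CNOT6, 0.094) and FTO (IGF2BP3, 0.071). The same held for YTHDF2 (TRMT112, 0.101) and WTAP (YTHDF2, 0.115), so a single closest gene is not set apart there. These distances rest on 6 libraries that share the group difference and the standing of shControl replicate 2.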

How the data were processed

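Poly(A) RNA libraries of 3 shControl and 3 shPUS1 MDA-MB-231 samples were analysed. The deposited estimated counts per gene were made by the authors with HISAT2 and HTSeq 0.6.1 (submitters' processing notes), and 29.8% to 31.8% of values above 0 were not whole. How these arose, the annotation and the strandedness are not given in the sources used here. FPKM was computed by the authors from counts, exonic length and library total, as deposited.

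Counts were rounded, filtered with filterByExpr, scaled by TMM (factors 0.973 to 1.032) and tested with the edgeR 4.0.16 quasi-likelihood test in R 4.3.3, Benjamini-Hochberg adjusted over all genes tested, and CPM uses TMM-scaled totals. Fold-change intervals (95%) come from the SE. Gene coordinates are from the table, and stretches and hairpin targets were searched in GENCODE release 29 (GRCh38). On simulated data with the dispersion of these libraries, 196 of 200 altered genes (log2 fold change 1.5, either direction) were recovered with 17 false calls. The altered genes were drawn only from those above a limit on mean counts. Changes as small as those of the members, and a library standing apart, were not simulated, so recovery at that size is not known.

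The members and lists were chosen with earlier results of these data known. Named genes were the members, PUS1 and, per list, called genes or otherwise the smallest p, with exceptions marked. DESeq2 1.42.0, limma 3.58.1 on log2(FPKM + 1) and log2(FPKM + 0.1), other scalings, no filter, protein-coding genes only, a replicate block and leaving out each library were alternatives.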

Additional observations from a re-analysis of the deposited data

How the results depend on the processing

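The number of members called was 0 under all 15 alternatives, and 137 of 150 member values kept their direction. Genes called (380) became 1730 with DESeq2, 250 with limma on log2(FPKM + 0.1), 1284 without a filter and 18 with a replicate block; leaving out a library gave 0 (without shPUS1 replicate 3, 2581 at an unadjusted p under 0.05) to 2813 (without shControl replicate 2), with 11 without shControl replicate 1, 11 without shPUS1 replicate 1 and 6 without shPUS1 replicate 2. Counts that also required a log2 fold change of 1 in size (202) were 489 with DESeq2, 112 with limma at 0.1, 87 with limma at 1, 536 without a filter, 18 with the replicate block and 0 to 497 without a library. Members at an unadjusted p under 0.05 (1) were 0 with library totals, upper-quartile factors, both limma fits and the replicate block. They were 2 with protein-coding genes only and with DESeq2 size factors, and 0 to 2 without a library. Over all genes, such a p was found for 3792 (library totals), 3940 (upper-quartile factors), 2815 (replicate block) and 3755 (DESeq2 size factors) of 14748. It was found for 3457 of 12608 protein-coding genes. Without a library it ran from 2112 of 15082 (without shPUS1 replicate 2) to 5219 of 15130 (without shControl replicate 2). VIRMA took values of -0.021 with library totals, -0.021 with limma at 0.1, -0.020 with limma at 1, -0.056 with upper-quartile factors and -0.029 to 0.043 without a library; YTHDC1 was -0.032 with upper-quartile factors and -0.132 to 0.17 without a library. Without a library WTAP ran from -0.322 to 0.09 and YTHDF2 from -0.305 to 0.024. PUS1 was called under 8 of the 15 alternatives and kept its direction under all, with an adjusted p of 0.0969 with the replicate block. The causes were not tested. Libraries with the same replicate number did not deviate together, with correlations of -0.05, -0.03 and -0.19. Calls rest on 3 libraries a group, with a common biological coefficient of variation of 0.22.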
